A study of Homo sapiens with 6 samples.

Results

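ATAC-seq marks open chromatin by inserting adapters where DNA is accessible. HLF cells, an established human hepatocellular carcinoma line, received either DMSO, the vehicle, or 5 µM SNDX-5613 (revumenib), an inhibitor of the binding of menin to the histone methyltransferase MLL1. Each group had 3 libraries, all labelled as batch 1 and 24 h of treatment, although the study's methods describe a longer treatment, so the duration is uncertain. The sites described here were 3964 of 163356 merged sites (2.43%) that had a peak in SNDX-5613 replicates 1 and 2 and in none of the 3 DMSO libraries. They are called opened sites here, although the absence of a listed peak does not show that chromatin was closed, and they were selected on these measured peak calls, so their presence in one group and absence in the other is how they were chosen and not a result. The mirror set, with a peak in all 3 DMSO libraries and in neither SNDX-5613 replicate 1 nor 2, held 2003 closed sites (1.23%). It required a peak in 3 libraries where the opened set required 2, so the sizes of both sets are not directly comparable. A further 15911 sites had a peak in another combination of 2 of these 5 libraries, and 59960 had one in all 5.

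Open chromatin peaks lie mainly at promoters, where transcription starts, and at distal elements such as enhancers, which act on genes over long distances. Menin tethers MLL1, a writer of the histone mark H3K4me3 found at active promoters, to chromatin. Many developmental regulators, such as homeobox and SOX genes, lie in gene-poor neighbourhoods that are kept closed in differentiated cells and that hold distal elements far from the gene.

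The 5 deep libraries had 87985 to 113619 regions on chromosomes 1 to 22 and X, and SNDX-5613 replicate 3 had 40552. The genome-wide background pileup recovered from the peak values was 0.997 to 1.51 fragments in the deep libraries and 0.211 in SNDX-5613 replicate 3, which was 16.2% of the median of the others. That library therefore took no part in choosing the sites and served only to look up support. Of 6 hepatocyte markers, the promoters of ALB, APOA1 and HNF4A had no peak in any library, those of TTR and AFP had one in the 5 deep libraries, and that of SERPINA1 had one in DMSO replicate 2 and SNDX-5613 replicate 1. The promoters of the mesenchymal genes VIM, ZEB1, TGFBI and FN1 and of the epithelial genes CDH1 and EPCAM had a peak in all 6. The study's methods describe a replicate as 1 dish of cells divided between treated and untreated arms, while the labels do not say which libraries shared a dish or whether dishes were grown separately, so spread between libraries may be technical.

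The sequences below are the 201 bases of the hg38 plus strand centred on the strongest summit of 7 opened sites, shown because they are among those that lead the set by strength at promoters or away from them or, for the site near IRX2, because it alone of its neighbourhood had a peak in SNDX-5613 replicate 3. Capitals mark 1 kind of motif on either strand in each sequence. In the KHDRBS2 and EGLN3 promoters this was the SP motif GGGCGG. In the ERC2, POU3F4 and chromosome 20 sequences it was the NF-Y motif, which is CCAAT preceded by a pair of purines and followed by C or G and then a purine. In the OPCML sequence it was the E-box CAGCTG, and the IRX2 sequence held none of the motifs searched.
KHDRBS2 promoter, chr6:62286189-62286389: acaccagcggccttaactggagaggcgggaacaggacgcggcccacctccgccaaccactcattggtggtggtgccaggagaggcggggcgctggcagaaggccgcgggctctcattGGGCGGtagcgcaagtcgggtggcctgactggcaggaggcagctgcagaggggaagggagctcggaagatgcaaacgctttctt
EGLN3 promoter, chr14:33951050-33951250: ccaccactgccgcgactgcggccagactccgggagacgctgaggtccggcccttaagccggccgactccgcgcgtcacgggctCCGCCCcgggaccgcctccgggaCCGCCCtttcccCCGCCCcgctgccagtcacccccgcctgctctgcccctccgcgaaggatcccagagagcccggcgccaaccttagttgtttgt
ERC2 promoter, chr3:56467167-56467367: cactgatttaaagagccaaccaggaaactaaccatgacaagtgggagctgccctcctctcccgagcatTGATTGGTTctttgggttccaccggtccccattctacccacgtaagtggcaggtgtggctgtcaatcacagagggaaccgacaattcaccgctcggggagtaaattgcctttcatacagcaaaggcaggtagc
POU3F4 promoter, chrX:83508077-83508277: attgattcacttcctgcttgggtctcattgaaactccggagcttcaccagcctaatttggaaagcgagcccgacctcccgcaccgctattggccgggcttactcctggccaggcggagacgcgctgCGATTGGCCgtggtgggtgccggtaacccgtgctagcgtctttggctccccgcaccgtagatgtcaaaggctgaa
intronic site on chromosome 20, chr20:24109133-24109333: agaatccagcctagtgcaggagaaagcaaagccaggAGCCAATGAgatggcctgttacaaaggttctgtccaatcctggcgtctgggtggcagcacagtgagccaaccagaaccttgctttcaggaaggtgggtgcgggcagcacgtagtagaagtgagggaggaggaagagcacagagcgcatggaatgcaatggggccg
intergenic site near OPCML, chr11:133576456-133576656: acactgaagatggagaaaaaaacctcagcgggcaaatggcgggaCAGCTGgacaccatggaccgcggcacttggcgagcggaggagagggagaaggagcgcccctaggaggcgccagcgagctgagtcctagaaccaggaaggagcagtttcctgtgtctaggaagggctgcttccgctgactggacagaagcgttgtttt
intergenic site near IRX2, chr5:2496244-2496444: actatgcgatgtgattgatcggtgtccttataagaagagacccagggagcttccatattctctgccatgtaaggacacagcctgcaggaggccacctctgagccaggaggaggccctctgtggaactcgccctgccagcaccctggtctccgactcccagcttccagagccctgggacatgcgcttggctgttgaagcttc

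Opened sites were weak peaks for the most part. The median −log10 p was 6.20 in SNDX-5613 replicate 1 and 6.23 in replicate 2, against medians of 15.4 and 15.8 over all sites of these libraries. The strongest values were 69.4 and 67.5. Solved from the peak values, the median summit pileup was 11 fragments in both libraries, with quartiles of 8 and 14 in replicate 1 and of 9 and 15 in replicate 2. The median fold enrichment over the local background was 4.43 and 4.25. Ranked by −log10 p within each library, the median opened site stood at a percentile of 22.5 in replicate 1 and of 22.2 in replicate 2. At or above the 50th percentile in both libraries were 116 opened sites (2.93%), at or above the 75th were 5, and none reached the 90th. The local background equalled the genome-wide value at 50.6% and 49.8% of the opened regions in replicates 1 and 2, and at 37.5% and 31.96% of the other regions. The summits of both libraries lay a median of 34 bp apart at opened sites and 10 bp apart at sites with a peak in all 5 libraries.

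Because the rule works on presence of a listed peak, sites near the listing threshold can fall on either side of it. The weakest members had a −log10 q of 1.302 to 1.304 in their weaker SNDX-5613 library, on chromosomes 20 (nearest INSM1), 10 (PALD1) and 17 (SRSF1). Just outside the set, sites near RPL22L1, TXNRD1 and CA7 had a peak in both SNDX-5613 libraries and a single DMSO peak with a −log10 q of 1.302 to 1.305. In all, 622 sites missed the set by a peak in DMSO replicate 1 alone, 2528 by a peak in DMSO replicate 2 alone and 1216 by a peak in DMSO replicate 3 alone. Leaving out DMSO replicate 2, the library with the most regions, gave 6490 opened sites. Dropping either SNDX-5613 library, so that a peak in the other sufficed, gave 15794 without replicate 1 and 18856 without replicate 2. The nearest DMSO region lay a median of 7127 bp away, and within 500 bp for 418 opened sites (10.5%). The authors' consensus set for SNDX-5613 overlapped 2212 opened sites (55.8%), and their consensus set for DMSO overlapped 250 (6.31%). Of the closed sites, 1750 (87.4%) overlapped the DMSO set and 468 (23.4%) the SNDX-5613 set. The study describes consensus calls across replicates, so the direction of these overlaps follows from how the sites were chosen.

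SNDX-5613 replicate 3, which the rule did not use, had a peak at 248 opened sites, or 6.26% (95% Wilson interval 5.54 to 7.05). The share over all merged sites was 22.1%, but this includes the strong sites that every library has. Closed sites had a peak in that library in 2.496% (1.90 to 3.28), and the other sites in 2 of 5 libraries in 2.21% (1.99 to 2.45). These and later intervals cover the counting of sites only. Support rose with strength, as it did over all merged sites. Strength here is the highest −log10 p in the 5 deep libraries. It came from SNDX-5613 libraries for opened sites and from DMSO libraries for closed sites. These libraries differ in depth, so the bands are not fully alike between classes. Of the opened sites whose highest −log10 p was under 5, 1.09% had a peak in replicate 3, and of the 154 at 20 or more, 38 did, or 24.7% (18.5 to 32.05). Of the closed sites at 20 or more, 7 of 280 did (1.22 to 5.07%), and the other sites in 2 of 5 libraries had 3.12% (1.93 to 5.01). Over all merged sites, which include those in every library, the share was 0.868% under 5, 9.71% from 12 to 20, where opened sites had 9.04%, and 59.2% at 20 or more. Where replicate 3 had a peak, its median −log10 p was 5.23, with a highest value of 12.7, and its summit lay within 100 bp of that of replicate 1 at 160 of 248 sites (64.5%).

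**Figure D1:**
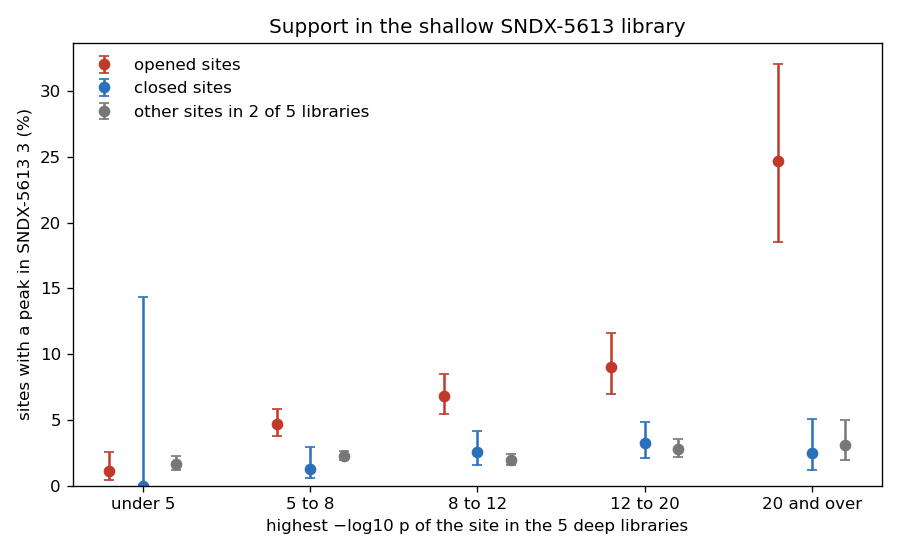
Share of sites with a peak in SNDX-5613 replicate 3, in percent, by the highest −log10 p of the site in the 5 deep libraries. Points are shares and bars are 95% Wilson intervals; opened sites climbed from 1.09% to 24.7%, while closed sites and other sites in 2 of 5 libraries remained at or below 3.22%.

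Opened sites lay in intergenic sequence more often than other sites. Intergenic sequence held 1647 of them, or 41.5% (40.02 to 43.1), against 27.0% (25.1 to 29.0) of closed sites and 30.8% of all sites. Introns held 40.04% of opened sites (38.5 to 41.6), 59.3% of closed sites and 45.3% of all sites. Promoters, taken as 1 kb on each side of an annotated start of a coding gene or a gene for long noncoding RNA, held 579 opened sites, or 14.6% (13.5 to 15.7), against 9.74% of closed sites (8.51 to 11.1), 11.6% of other sites in 2 of 5 libraries and 19.2% of all sites. The nearest start belonged to a long noncoding RNA gene for 45.6% of opened sites (44.04 to 47.1) and 35.7% of all sites. The median distance to a protein-coding start was 30620 bp for opened, 26216 bp for closed and 15720 bp for all sites. To a start of either kind it was 14308 bp for opened, 15547 bp for closed and 9427 bp for all sites. Over 100 kb from any such start lay 8.88% of opened, 13.3% of closed and 6.11% of all sites.

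Within 1 kb of a protein-coding start lay 416 opened sites, belonging to 387 genes, and 31 of the sites (7.45%) had a peak in SNDX-5613 replicate 3. Of the 387 genes, 141 (36.4%) also had another promoter site with a peak in all 5 deep libraries, compared with 61.8% of all protein-coding genes. The strongest was that of CNTN1, a contactin that mediates adhesion of neurons, with a −log10 p of 69.4 and 62.4 in SNDX-5613 replicates 1 and 2, a fold enrichment of 20.2 and 17.2, and no peak in replicate 3. The promoter of KHDRBS2, an RNA-binding regulator of splicing, followed with 58.3 and 67.5, and it had a peak in replicate 3 with a −log10 p of 5.75. EGLN3, a prolyl hydroxylase that acts on hypoxia-inducible factors, had 65.5 and 39.6. These promoter peaks spanned 684 to 715 bp, above the third quartile of opened sites, 368 bp.

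The next promoters were weaker. ERC2, a scaffold of the presynaptic active zone, had a −log10 p of 50.3 and 35.5, and ENTPD1, an ectonucleotidase that degrades extracellular ATP, had 29.8 and 32.2. ENPP2, which encodes autotaxin, the enzyme that makes lysophosphatidic acid, had 25.9 and 23.8, and PCDH11X, a protocadherin, had 20.6 and 25.1. POU3F4, a POU-domain regulator of neural and inner ear development, had 40.5 and 20.6. VSNL1, a neuronal calcium sensor, had 20.6 and 20.5, with 4.24 in replicate 3. Of these 9 promoters, 2 had a peak in replicate 3. NF-Y motifs lay within 100 bp of the summit at ERC2 and POU3F4. By the lists of families, opened promoter sites belonged to 9 solute carrier genes, 8 potassium channel genes, the 5 homeobox genes DLX5, HMX1, IRX6, SIX3 and SIX6, and 4 contactin and neurexin genes. They belonged to 3 bHLH genes, ATOH1, BHLHE41 and NEUROD4, and to 0 SOX, FOX, T-box, WNT or FZD genes. These counts were not set against the number of promoters in each family.

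The other 7 of the 10 strongest opened sites lay 28581 bp or more from a coding start. The site on chromosome 11, 44055 bp from a start of OPCML, a cell adhesion molecule of the IgLON family, had a −log10 p of 46.2 and 47.0 in SNDX-5613 replicates 1 and 2 and of 10.6 in replicate 3, where it ranked at a percentile of 47.5. On chromosome 7, a site 930387 bp from the nearest protein-coding gene, ZNF722, had 46.5 and 37.9, with 11.01 in replicate 3. The chromosome 20 site, which carries an NF-Y motif and lies 120454 bp from GGTLC1, had 35.9 and 59.1, with 7.38 in replicate 3. A site on chromosome 1, 327939 bp from C1orf174, had 42.9 and 37.9, with 5.20 in replicate 3. On chromosome 12, 51688 bp from PIWIL1, a site had 36.1 and 41.9 and no peak in replicate 3. On chromosome 8, 28581 bp from FAM90A14, a site had 53.7 and 42.8 and no peak in replicate 3. One of the 10 strongest, on the short arm of chromosome 21 and nearest to TPTE, had 61.6 and 50.2, but its 31 summit bases occur 171713 times in the genome and it had no peak in replicate 3. Over all opened sites, the 31 bases at the summit occurred more than once in 8.60% (7.77 to 9.52), against 8.29% of closed and 6.19% of all sites.

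Opened sites gathered near chromosome ends, most clearly between 2 and 5 Mb from them. Within 5 Mb of an end lay 717 of them, or 18.1% (16.9 to 19.3), against 6.64% of closed sites (5.63 to 7.82), 11.9% of other sites in 2 of 5 libraries (11.4 to 12.5) and 12.9% of all sites. Between 2 and 5 Mb from an end 3.92% of sites were opened and 0.534% closed, while beyond 40 Mb 2.10% were opened and 1.45% closed. The ends with the most opened sites were the p end of chromosome 5, with 47 of 470 sites (10%), the q end of chromosome 12, with 44 of 560 (7.86%), and the p end of chromosome 2, with 38 of 404 (9.41%). Closed sites numbered 4, 2 and 0 there, where 1.23% of all sites were closed. These ends were picked by their opened sites, and the closed counts are too small to show a contrast. By whole chromosome, the opened share ran from 1.79% on chromosome 17 to 3.46% on chromosome 7. With opened sites left out and the 40552 strongest regions taken in each library, regions within 5 Mb of an end made up 11.3%, 11.2% and 11.2% in DMSO replicates 1 to 3 and 11.7%, 11.7% and 11.9% in SNDX-5613 replicates 1 to 3. All 3 SNDX-5613 libraries lay above all 3 DMSO libraries. This is a description, because all of these libraries except SNDX-5613 replicate 3 chose the opened sites. For replicate 3 the 40552 regions are its whole list, while the other lists were cut to stronger regions.

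**Figure D2:**
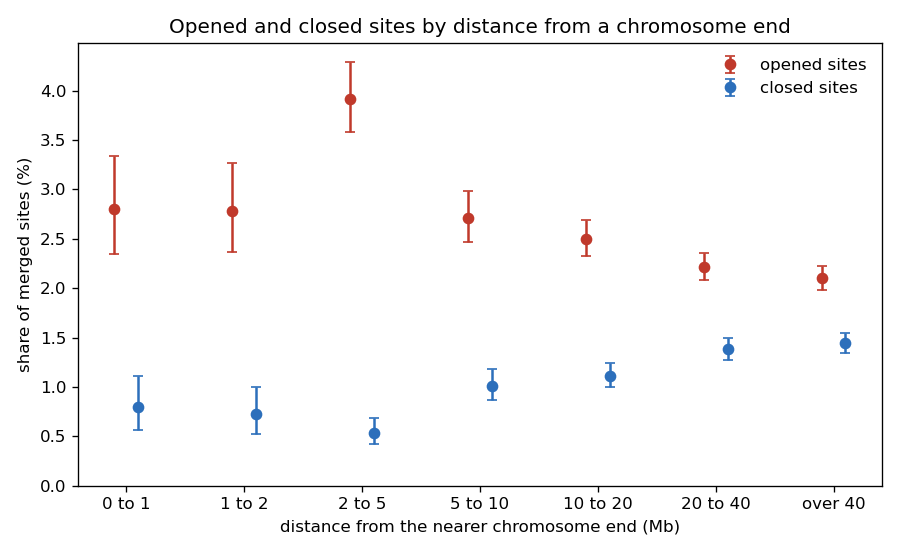
Share of merged sites that were opened or closed, in percent, by distance from the nearer chromosome end in Mb, with 95% Wilson intervals. The opened share peaked at 3.92% between 2 and 5 Mb, where the closed share was lowest, 0.534%.

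Opened sites also lay close to each other and in sparse neighbourhoods. The nearest other merged site was itself opened for 307 of them, or 7.74% (6.95 to 8.62), against 0.899% of closed sites and 2.36% of all sites. It was closed for 0.404% of opened, 3.79% of closed and 1.25% of all sites, so closed sites lay close to each other as well. No site with a peak in all 5 deep libraries lay within 100 kb of 692 opened sites, or 17.5% (16.3 to 18.7), against 5.94% of closed sites (4.99 to 7.06) and 4.96% of all sites. Where no such site lay within 100 kb, 8.54% of sites were opened and 1.47% closed. Where 11 or more did, 1.20% were opened and 0.963% closed. Windows of 1 Mb with 5 or more opened sites numbered 166 of 2904. They held 27.7% of the opened sites, 4.09% of the closed sites and 10.2% of all sites. These windows were picked by their opened sites, so a higher share of opened sites in them follows from that choice.

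The densest neighbourhood was that of the IRX genes on chromosome 5. IRX1, IRX2 and IRX4 encode homeobox transcription factors of the Iroquois family, which pattern embryonic tissues. Of all genes, IRX2, MYT1L and SDK1 were nearest to the most opened sites, 14 each, and IRX1 and IRX4 were nearest to 9 each. The window from 2000001 to 3000000 held 71 sites, of which 20 (28.2%) were opened and 0 closed. Between the starts of IRX4 and IRX1, chr5:1881093-3595832, 29 of 113 sites were opened (25.7%), 0 were closed and 4 had a peak in all 5 deep libraries. The peak lists held 7, 14 and 11 regions there in DMSO replicates 1 to 3, 70 and 74 in SNDX-5613 replicates 1 and 2, and 12 in SNDX-5613 replicate 3. With regions of opened sites left out, SNDX-5613 replicates 1 and 2 had 41 and 45, but the interval stands out through sites chosen in these libraries, so their counts here and in the windows below are a description. SNDX-5613 replicate 3, which the rule did not use and which listed the fewest regions genome-wide, had 11 of these, in the range of the DMSO libraries. Among the 40552 strongest regions of each library, again without opened sites, the interval had 2, 2 and 1 in DMSO replicates 1 to 3 and 4, 3 and 11 in SNDX-5613 replicates 1 to 3. These 40552 are the whole list of SNDX-5613 replicate 3, down to the listing threshold, while the other lists were cut to stronger regions. The 11 of replicate 3 were therefore counted at an unlike threshold and do not show a difference from DMSO.

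The 32 opened sites nearest to IRX1, IRX2 or IRX4 lay mostly far from the gene starts, at 4.70 to 601 kb with a median of 255.6 kb. Their −log10 p ran from 3.72 to 23.2 in SNDX-5613 replicate 1, with a median of 6.98, and from 3.57 to 25.8 in replicate 2, with a median of 7.999. The median GC content of 59.2% was above that of all opened sites, 53.7%. One of them, printed above as the site near IRX2, had a peak in replicate 3, with a −log10 p of 4.16, after 23.2 and 16.6 in replicates 1 and 2.

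**Figure D3:**
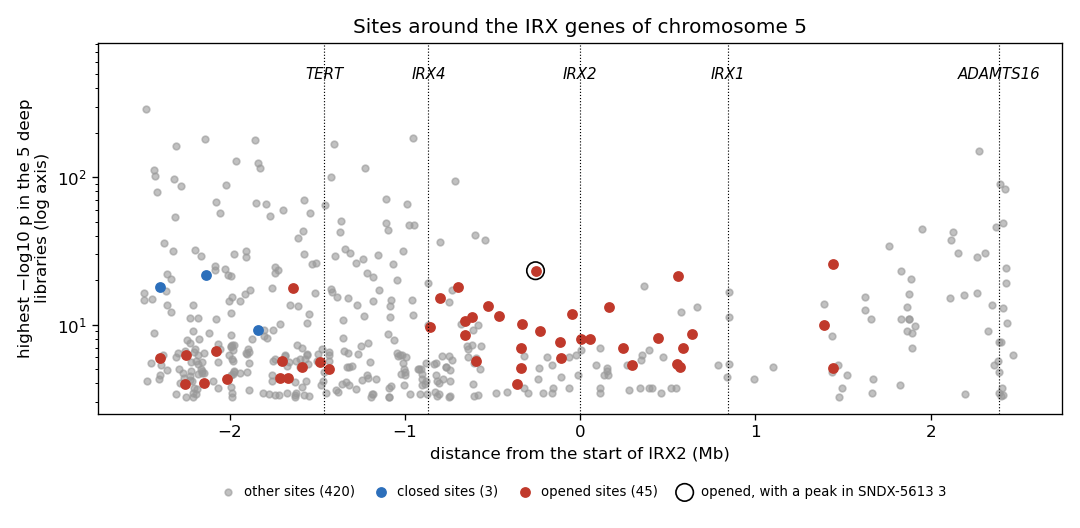
Merged sites within 2.5 Mb of the start of IRX2, by distance in Mb, against their highest −log10 p in the 5 deep libraries on a log axis. The opened sites (45, red) include 29 of the 113 sites between IRX4 and IRX1, and 1 of them had a peak in SNDX-5613 replicate 3.

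The next windows lay on chromosomes 12, 2, 5 and 19. On chromosome 12, the window from 130000001 to 131000000 around FZD10, a Wnt receptor, and PIWIL1, a PIWI protein of the germline, had 16 opened sites of 125. On chromosome 2, the window from 2000001 to 3000000 held 13 of 63, by MYT1L, a zinc finger repressor of non-neuronal genes in neurons. With opened sites left out, that window had 7, 10 and 10 regions in DMSO replicates 1 to 3, 28 and 27 in SNDX-5613 replicates 1 and 2, and 8 in SNDX-5613 replicate 3. Among the 40552 strongest regions it had 1 in each DMSO library and 5, 5 and 8 in SNDX-5613 replicates 1 to 3. Here too the 40552 are all regions of replicate 3 but only the stronger regions of the other libraries. The window from 174000001 to 175000000 on chromosome 5 held 12 of 63, near MSX2, a homeobox regulator of skull and limb development. Its remaining regions among the strongest numbered 10, 9 and 11 in DMSO and 15, 13 and 11 in SNDX-5613 libraries, so that replicate 3 overlapped the DMSO libraries. The window on chromosome 19 from 54000001 to 55000000, around the immune receptor genes LAIR1, LAIR2 and LILRB1, held 11 of 159, a count shared with 3 other windows, on chromosomes 2 and 7. Its remaining regions among the strongest numbered 32, 35 and 33 in DMSO and 34, 35 and 34 in SNDX-5613 libraries, and the groups overlapped. In each of these 5 windows 0 sites were closed, but the windows were picked by their opened sites and only 1.23% of all sites were closed.

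Opened sites were nearest to 2653 protein-coding genes, of which 1947 had 1 and 71 had 5 or more. SDK1, an adhesion molecule of synapses, had 14 opened of 82 sites (17.1%), and 11 opened sites lay in its body. SOX11, a regulator of neural progenitors, had 13 of 56 (23.2%). PTPRN2, a phosphatase-like protein of secretory vesicles, had 12 of 115 (10.4%), and its body held 11. TPTE, a phosphatase-related gene expressed in testis, had 12 of 205 (5.85%), at a median distance of 1915 kb. PDE10A, a phosphodiesterase of cyclic nucleotides, had 10 of 63 (15.9%), and its body held 10. Besides IRX1 and IRX4, those with 9 were ADGRD1, an adhesion receptor, CDH8, a cadherin, GALR1, a receptor of galanin, MSX2, TIAM1, an activator of RAC, and WWOX, an oxidoreductase gene at a fragile site. Of the 15 genes with 9 or more, TPTE had 2 closed sites, CDH8 had 3 and the other 13 had 0. These genes were picked by their opened sites, and only 1.23% of all sites were closed. The body of WWOX held 9 opened of 23 sites (39.1%), and that of MYT1L held 8 of 43. RPS6KA2, a ribosomal S6 kinase, and TIAM1 followed with 6 each, and 8 genes, among them ADARB2, ADCY2 and KAZN, with 5. The gene containing an opened site had a median length of 167 kb, against 180 kb for closed and 124 kb for all sites.

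By family, sites nearest to homeobox regulators other than HOX genes were opened most often among the larger families, in 75 of 985 or 7.61% (6.12 to 9.44), against 2.43% of all sites, and 3 were closed. The IRX genes gave 32 of the 75, and HMX1 had 4. Contactins, contactin-associated proteins, neurexins and neuroligins, which join neurons at synapses and along axons, had 26 of 377 or 6.90% (4.75 to 9.91), led by CNTN5 with 7 and CNTNAP2 with 4. SOX genes had 24 of 365 or 6.58% (4.46 to 9.60), of which SOX11 gave 13 and SOX9 gave 4. Clustered protocadherins had 4 of 41. GABA-A receptor genes had 7 of 122 or 5.74% (2.81 to 11.4), and keratins 17 of 325 or 5.23% (3.29 to 8.22). Olfactory receptors had 28 of 558 or 5.02% (3.49 to 7.16), and bHLH regulators 14 of 280 or 5.00% (3.00 to 8.22). WNT and FZD genes had 16 of 351, with FZD10 giving 7, glutamate receptors had 16 of 356, and the IgLON genes had 12 of 267. The intervals of these 11 families lay above 2.43%. Against 1.23% of all sites, closed sites made up 3.37% at the IgLON genes (9 sites), 2.46% at GABA-A receptor genes (3) and 2.19% at SOX genes (8), and between 0% and 1.25% at the other 8 families.

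For the remaining families the interval included 2.43%. T-box genes had 9 of 222, sushi genes 6 of 143, receptor phosphatases 22 of 715, of which PTPRN2 gave 12, and GATA genes 3 of 103. FOX genes had 20 of 691, zinc finger genes 68 of 2976, potassium channels 35 of 1533 and collagens 18 of 789. RUNX genes had 3 of 148, solute carriers 58 of 2991, ADAM genes 13 of 708, sodium and calcium channels 10 of 599 and HOX genes 2 of 130. Among cadherins outside the clusters, 30 of 1615 sites were opened (1.86%) and 67 closed (4.15%), the only family with more closed than opened sites. CDH8 gave 9 of those 30. The members of a family that share a locus, as the IRX genes do, are not independent of each other.

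**Figure D4:**
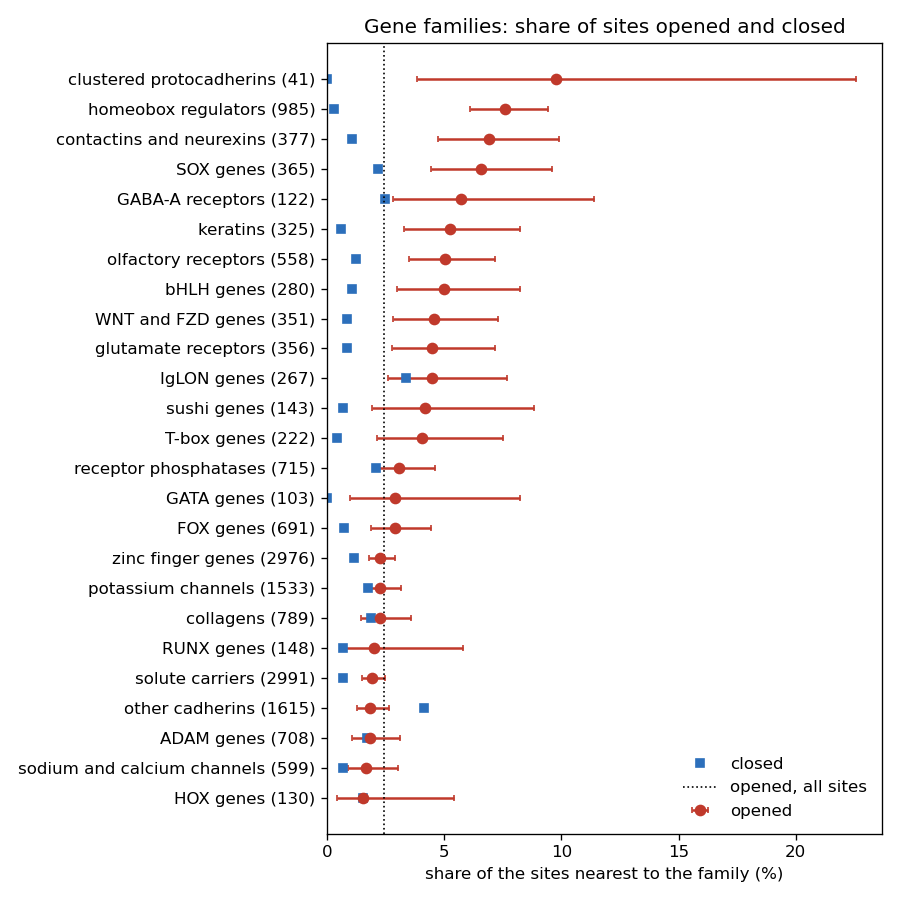
Share of the merged sites nearest to each gene family that were opened (red, with 95% Wilson intervals) or closed (blue), in percent, with the number of sites in brackets. The dotted line marks the opened share of all sites, 2.43%; homeobox regulators stood at 7.61%.

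The families were also looked up outside the opened sites. With opened sites left out, the share of the 40552 strongest regions nearest to homeobox regulators was 0.370%, 0.397% and 0.372% in DMSO replicates 1 to 3 and 0.413%, 0.415% and 0.442% in SNDX-5613 replicates 1 to 3. All SNDX-5613 libraries lay above all DMSO libraries for 10 of the 25 families (40%) and below them for 0 (0%). The 10 were homeobox regulators, contactins and neurexins, bHLH, FOX, T-box, WNT and FZD, keratin, zinc finger, potassium channel and sushi genes. In 4 of them, contactins and neurexins, T-box, WNT and FZD, and FOX genes, the lowest SNDX-5613 and the highest DMSO library held the same number of regions (48, 37, 71 and 156), and only the totals left after removing opened sites set them apart. For SOX genes the groups overlapped, at 0.118% to 0.128% in DMSO and 0.121% to 0.156% in SNDX-5613 libraries. These libraries, except SNDX-5613 replicate 3, also chose the opened sites. The 40552 regions are the whole list of replicate 3 but only the stronger regions of the others. The separation of the groups in the 10 families is therefore a description.

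The sequence of opened sites was richer in GC than that of closed sites. The median GC content of the 201 bases at the summit was 53.7% for opened, 47.8% for closed and 52.2% for all sites. SP motifs (GGGCGG) lay in 13.7% of opened sites (12.7 to 14.9), 6.89% of closed sites (5.86 to 8.08) and 14.7% of all sites. An NF-Y motif lay in 222 opened sites, or 5.60% (4.93 to 6.36), against 5.14% of closed sites (4.26 to 6.20) and 5.06% of all sites. The share was 4.30% (3.99 to 4.63) at other sites in 2 of 5 libraries, below the interval of opened sites, and 6.55% (6.36 to 6.75) at sites in all 5 libraries. Motifs of CTCF, which anchors chromatin loops, lay in 1.24% of opened sites (0.936 to 1.63), 2.60% of closed sites (1.99 to 3.39) and 3.89% of all sites. The FOX motif TGTTTAC lay in 3.63% of opened (3.09 to 4.26), 3.20% of closed and 2.65% of all sites, and the E-box CAGCTG in 16.8% (15.6 to 18.0), 13.2% and 15.1%. GATA motifs (AGATAA) lay in 7.82% (7.02 to 8.70) of opened, 7.89% of closed and 6.95% of all sites, and TEAD motifs (CATTCC) in 16.8% (15.7 to 18.0), 13.8% and 15.6%. For AP-1 (TGANTCA), ETS (CCGGAAG), RUNX (TGTGGTT), MEIS (TGACAG) and SOX (ACAAAG) motifs, the interval of opened sites included the share of all sites. The homeobox motif TAATTA lay in 1.97% of opened (1.58 to 2.45), 2.85% of closed and 2.47% of all sites. Motifs were searched on both strands, and a match does not show that a factor was bound.

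Whether the surroundings of opened sites also differed was asked from regions within 50 kb of an opened site, with regions of opened sites left out. They made up 14.4%, 14.5% and 14.6% of all regions in DMSO replicates 1 to 3 and 15.5%, 15.8% and 14.002% in SNDX-5613 replicates 1 to 3. DMSO averaged 14.5% ± 0.0729 and SNDX-5613 averaged 15.1% ± 0.971 (mean ± SD over 3 libraries each), which did not differ beyond the spread (p = 0.4, exact two-sided permutation test), and the shallow replicate 3 lay below the DMSO libraries. At the 40552 strongest regions of each library the shares were 13.2%, 13.2% and 13.3% in DMSO and 14.2%, 14.1% and 14.002% in SNDX-5613 libraries. DMSO then averaged 13.2% ± 0.0645 and SNDX-5613 averaged 14.1% ± 0.102 (p = 0.1, exact two-sided permutation test). Here the groups did not overlap, and 0.1 is the smallest p that 3 against 3 libraries allow. Over all regions the difference of 0.605 percentage points was 1.16 without SNDX-5613 replicate 3, 0.246 without SNDX-5613 replicate 2 and 0.180 within 10 kb (p = 0.6, exact two-sided permutation test, n = 3 each). Among the 40552 strongest regions, those within 10 kb made up 2.39%, 2.33% and 2.39% in DMSO and 2.59%, 2.62% and 2.76% in SNDX-5613 libraries, again without overlap (p = 0.1, exact two-sided permutation test, n = 3 each). SNDX-5613 replicates 1 and 2 and the 3 DMSO libraries also chose the opened sites, so replicate 3 is the only library here that is independent of that choice. Its share of 14.002% within 50 kb is the same in both comparisons, because the 40552 regions are its whole list. The other lists were cut to stronger regions. These tests therefore cannot decide whether the surroundings of opened sites differed.

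**Figure D5:**
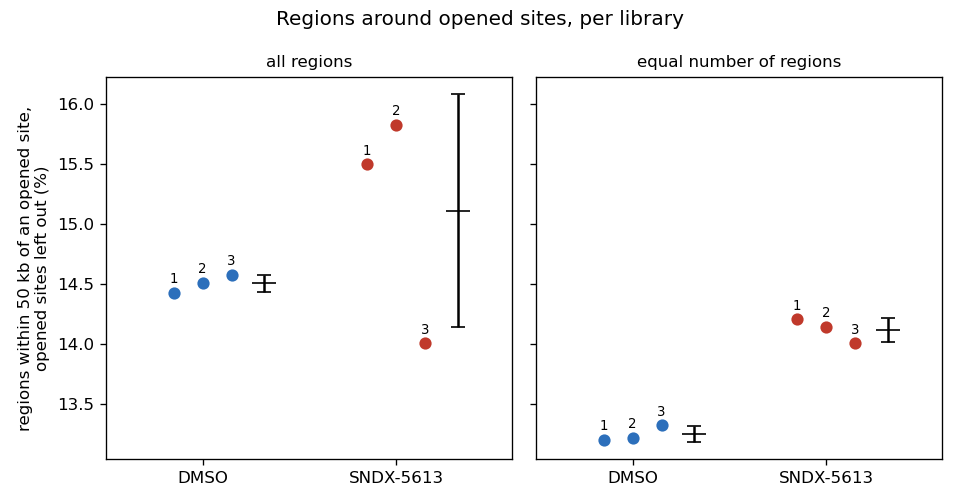
Share of the regions of each library that lay within 50 kb of an opened site, in percent, with regions of opened sites left out, over all regions and over the 40552 strongest of each library. Points are libraries with their replicate number and bars are mean and SD. The vertical axis does not start at 0. SNDX-5613 replicate 3, whose value is the same in both panels, lay below the DMSO libraries on the left and above them on the right.

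The promoters of the 2653 genes nearest to opened sites were compared next. Of these genes' promoter sites, 1680 had a peak in all 6 libraries, and each was ranked by −log10 p among the 33392 such sites. The median rank percentile was 65.8, 65.7 and 67.8 in DMSO replicates 1 to 3 and 67.2, 67.1 and 67.7 in SNDX-5613 replicates 1 to 3. The difference in means of 0.897 percentile points did not exceed the spread between libraries (two-sided exact permutation p = 0.4, n = 3 each). In 183 of the 1680 promoters (10.9%) each SNDX-5613 rank exceeded every DMSO rank, against 8.55% of all 33392 sites and 7.07% of all coding promoters. Each lay below every DMSO rank at 113 (6.73%), against 8.07% and 8.10%. Ranked by fold enrichment in place of −log10 p, the medians were 48.9, 49.9 and 50.2 in DMSO and 51.02, 50.4 and 63.9 in SNDX-5613 libraries, a difference of 5.41 (p = 0.1, exact two-sided permutation test, n = 3 each) in which replicate 3 stood apart from the others. In that library the median over all coding promoters was likewise higher by fold, at 72.1 against 59.4 to 60.8 in the others. The opened sites, and through them these genes, were chosen with all of these libraries except SNDX-5613 replicate 3. The ranks and the counts of promoters are therefore a description. For the same reason the tests cannot decide whether these promoters differed between the groups.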

How the data were processed

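Libraries were made by Omni-ATAC. Per the labels (the submitters' processing notes) and the methods given for the study, the authors trimmed reads with Trim Galore 0.6.7, aligned them to hg38 with Bowtie2 2.3.4.1, marked duplicates with Picard 2.20.0 and called peaks with MACS2, 1 list per library. A shift for the Tn5 cut and a blacklist are not given in the sources used here. The deposited lists hold, per summit, the authors' fold enrichment, a ratio of pileup to local background, and their −log10 p and −log10 q. The deposited consensus sets hold a combined −log10 p, and only their regions were used. Values were ranked within a library and never compared between libraries as levels.

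Summits sharing a region were reduced to the strongest, and regions overlapping by 1 bp or more were merged with Python 3 scripts (pandas, scipy). Genes and starts came from GENCODE release 44, and 0 summits lay past a chromosome end of hg38. Fold and p were solved for a whole-number pileup, which worked within a −log10 p of 0.001 for over 99.9% of the regions tried in each library. Scripts were tested on simulated data. Groups came from the labels. Two-sided exact permutation tests compared 3 with 3 libraries. The sites named were the 10 strongest by minimum rank in SNDX-5613 replicates 1 and 2, the 10 strongest at coding promoters, the 10 genes nearest to most opened sites or holding most (ties added), and the 5 densest windows. A few items that this rule names are not reported here. Members and lists were chosen with earlier results of these data known. Alternatives varied the q threshold, the overlap, the number of regions, the distances, the libraries and the replicate block.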

Additional observations from a re-analysis of the deposited data

How the results depend on the processing

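Opened sites depend on a peak being listed or not, so depth limits them, and most are weak. No read counts were analysed here. A −log10 q of at least 3 in the SNDX-5613 libraries gave 2232 opened sites, of which 8.60% had a peak in SNDX-5613 replicate 3, 15.8% lay at promoters, 43.2% were intergenic, 5.96% had an opened nearest site and 6.68% an NF-Y motif. The same threshold in every library gave 8.90% with a peak in replicate 3 and 17.1% at promoters. At an equal number of regions these were 8.57% and 16.2%, with 16.8% within 5 Mb of an end, 8.70% with an opened nearest site and 6.83% with an NF-Y motif. Counting a peak only where it covered 50% of a site, 12.8% had a peak in replicate 3, 39.4% were intergenic, 15.9% lay within 5 Mb of an end and 6.94% had an opened nearest site. Requiring replicate 3 left 248 sites, with 16.9% at promoters, 48.0% intergenic, 19.4% near an end, 0.806% with an opened nearest site, 6.45% with an NF-Y motif and a median GC content of 54.7%. A promoter distance of 3 kb gave 22.9% (29.4% of all sites), a motif window of 250 bp 8.30% (7.54% of all sites), and 10 Mb from an end 28.4% (22.1% of all sites). The share with an opened nearest site depends by its definition on how many sites are opened. Its share over all sites is not given for the settings above and below, so these shares are not comparable between settings. The cause of the other moves was not tested. Leaving out 1 library at a time gave 4590 to 18856 opened sites, 2.18% to 6.76% with a peak in replicate 3, 12.5% to 14.9% at promoters, 37.4% to 40.8% intergenic, 15.99% to 18.04% near an end, 8.32% to 22.2% with an opened nearest site, 3.73% to 6.29% with an NF-Y motif and a median GC content of 52.2% to 53.7%. The highest count is that without SNDX-5613 replicate 2, where a peak in 1 library sufficed. The difference in promoter rank ran from 0.529 to 1.57 and that in regions around opened sites from 0.246 to 1.16 percentage points, with no change of sign. With 2 against 3 libraries the exact p cannot go below 0.2.

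Labels give both groups the same replicate numbers, and the study's methods describe dishes divided between both arms, but no label ties a number to a dish. The deviations of same-numbered libraries from their group means correlated at 0.0314, 3.26e-05 and 0.0184, which shows no pairing and does not exclude it. With the replicate block, the difference was 0.897 percentile points for promoter rank and 0.605 percentage points for regions around opened sites (exact sign-flip p = 0.5 for both, smallest possible 0.25). Leaving out sites whose summit bases recur in the genome, chosen after seeing the data, kept 3623 sites and moved no other value beyond its interval.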
